A study of Mus musculus with 6 samples.

Results

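The genes described here are 10 well known transcriptional targets of the tumour suppressor p53: Cdkn1a, Mdm2, Ccng1, Trp53inp1, Zmat3, Eda2r, Sesn1, Phlda3, Bax and Aen. They were chosen by name, with earlier results of these data known. Each was read from probe sets whose platform annotation gives that symbol and no other. This took 8 of the 10, each with 1 probe set, among 19938 genes tested. The only probe set that lists Cdkn1a lists a further gene as well, so its signal belongs to no single gene. Cdkn1a, Bax and the gene of p53 itself were not analysed here.

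The study profiled dermal cells from neonatal C57BL/6 mice after 2 days of culture, on 6 one-colour Affymetrix arrays of total RNA. The control group, labelled DMSO after the solvent, and the treated group, labelled FR, have 3 arrays each. FR stands for a pair of compounds at 20 µM apiece: forskolin, which makes adenylyl cyclase produce cyclic AMP, and RepSox, which blocks the TGF-β type I receptor kinase. Neither was given alone, so their effects cannot be told apart. Whether the 3 samples of a group are separate cultures or animals is not stated, and the p-values reflect only how these samples vary, which may be technical.

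Levels are log2 RMA values, the probe-set summaries that the authors deposited, and every change is FR minus DMSO, so that a negative change means lower with FR. A gene is called changed at an adjusted p under 0.05 in limma's moderated test over all genes. Over all 19938 genes, 2888 fell and 2671 rose, and the median change was 0.05. Arrays correlated across genes with r of 0.9926 to 0.9961 within groups and 0.9717 to 0.9776 between them. With so few arrays precision is limited, and the standard error of a change had a median of 0.096 over all genes. Olfactory receptor genes, taken as not expressed in these cells, reached 5.66 at their 95th percentile in DMSO. All 8 measured p53 targets lay above that level in both groups. The level was set in DMSO only and used for FR means too, while the 1015 olfactory receptor genes had a median change of 0.14.

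p53 is a DNA-binding transcription factor held at low levels by the ubiquitin ligase Mdm2, which is itself a p53 target, so that the pair forms a feedback loop. DNA damage, oncogene activity and other stresses release p53 from Mdm2, and its targets then slow the cell cycle, repair DNA, adjust metabolism or start cell death. Many of these targets are also transcribed at a basal rate that depends on p53 in unstressed cultured fibroblasts. In skin, p53 is known for its response to ultraviolet light and for the tanning and apoptosis that follow.

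p53 binds DNA through a pair of short half-sites. Stretches from 4 of the measured genes are shown because they hold a match near a start: a pair of half-sites in Ccng1 and Sesn1, and a lone half-site in Mdm2 and Aen. RefSeq promoters (GRCm38.p6, from 250 bases before to 50 bases after a transcript start) were found for 6 of the 8 measured genes, in 8 windows. Trp53inp1 and Zmat3 were not among them. Capitals mark a match to the p53 half-site consensus without mismatch, or, for Ccng1 and Sesn1, a pair of half-sites with up to 2 mismatches in all and at most 3 bases between them. Each stretch is written 5′ to 3′ on the strand of the gene. The Mdm2 stretch is chr10:117710885-117710994 on the minus strand, the Ccng1 stretch chr11:40755412-40755531 on the minus strand, the second Sesn1 start has chr10:41887203-41887325 on the plus strand, and the Aen stretch is chr7:78895887-78895996 on the plus strand.
Mdm2: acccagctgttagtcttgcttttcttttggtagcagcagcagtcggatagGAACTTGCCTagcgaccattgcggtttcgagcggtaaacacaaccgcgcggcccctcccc
Ccng1: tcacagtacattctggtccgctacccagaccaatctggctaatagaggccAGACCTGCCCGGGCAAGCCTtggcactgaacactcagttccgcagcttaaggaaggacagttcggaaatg
Sesn1: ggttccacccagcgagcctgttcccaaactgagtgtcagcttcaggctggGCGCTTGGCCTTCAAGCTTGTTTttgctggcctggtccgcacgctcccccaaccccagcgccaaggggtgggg
Aen: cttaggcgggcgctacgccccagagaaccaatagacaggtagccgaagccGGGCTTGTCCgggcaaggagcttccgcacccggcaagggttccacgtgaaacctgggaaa

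The matched half-site began 186 bases before the start in Mdm2, 185 in Ccng1, 173 at the second Sesn1 start and 121 at the second of 2 overlapping Aen windows. The same Aen match begins on base 11, counting the first Aen start as base 1. The Ccng1 pair had 1 mismatch and the Sesn1 pair had 2. No match was found in the windows of Eda2r, Phlda3 or the first Sesn1 start, which says only that these letters are not there. The consensus reads the same on both strands, and a half-site without mismatch occurs in 8.36% of all 32851 promoters in the table and the pair in 1.35%. The full cyclic AMP response element, TGACGTCA, was in none of the 8 windows and in 1.79% of all promoters on either strand. Mdm2 and Ccng1, with a match, fell, as did Eda2r and Phlda3, without one. Aen and Sesn1, with a match, did not pass the test described next. All were chosen as p53 targets and sites outside these windows were not searched, so the comparison cannot decide whether a site goes with a fall. Among all tested genes with a promoter here, 14.8% fell, against 15.7% of the 1335 with a half-site and 20.9% of the 239 with the pair, given as description.

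p53 target genes were lower with FR. Of the 8 measured, 6 fell and none rose, where 14.5% of all genes fell and 13.4% rose. The genes were chosen with earlier results of these data known, so the counts are given as description. At an unadjusted p under 0.05 the count was again 6 lower and 0 higher. All 8 changes were negative, with a median of -0.72. Genes that start as high as these fell more often: of the 7964 genes with a DMSO level between 6.74 and 10.99, the range of these targets, 29.5% fell, with a median change of -0.10. The values of the 2 groups did not overlap for 7 of the 8, with FR lower, which held for 20.9% of all genes. Averaged over the 8 genes, the level lay between 8.47 and 8.52 on the DMSO arrays and between 7.80 and 7.94 on the FR arrays. In RNA from a whole culture, fewer cells that express a gene and less RNA per cell cannot be told apart.

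**Figure D1:**
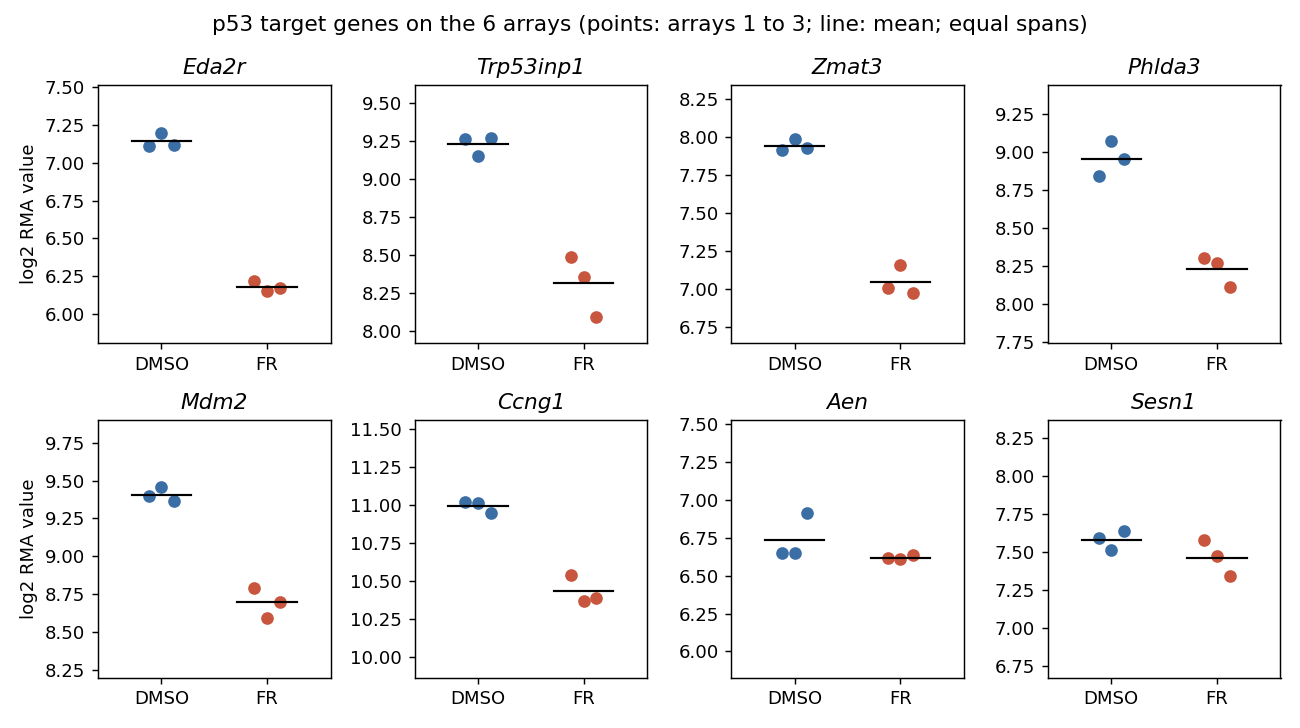
log2 RMA values of the 8 measured p53 target genes, one panel a gene with equal spans, points for the 3 DMSO and 3 FR arrays and lines for group means. In 6 panels the FR points sit well below the DMSO points, while those of Aen and Sesn1 lie close together.

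Regulators of p53 and of its target programme are given first. Mdm2, the ligase that marks p53 for degradation, read 9.40, 9.46 and 9.36 on the DMSO arrays and 8.79, 8.60 and 8.70 on the FR arrays. Every FR array lay below every DMSO array by more than the spread within either group. It fell by 0.71 on the log2 scale (SE 0.086, 1.64-fold lower, adjusted p = 0.000126). Trp53inp1, a stress-induced nuclear protein gene whose product helps p53 activate death and autophagy genes, read 9.26, 9.15 and 9.27 in DMSO and 8.49, 8.36 and 8.09 in FR. The FR arrays were all lower and were spread more widely than the DMSO arrays (SD 0.20 against 0.065). Trp53inp1 fell by 0.92 (SE 0.11, 1.89-fold lower, adjusted p = 9.54e-05). Zmat3, a zinc finger RNA-binding protein gene that acts in p53-dependent growth suppression, read 7.91, 7.99 and 7.93 in DMSO against 7.01, 7.16 and 6.97 in FR. The groups were far apart and narrow, and the level fell by 0.90 (SE 0.085, 1.86-fold lower, adjusted p = 2.07e-05).

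Genes that act on growth and the cell cycle followed. Ccng1, which encodes cyclin G1, a partner of protein phosphatase 2A that works on Mdm2, had DMSO values of 11.02, 11.01 and 10.95 and FR values of 10.54, 10.37 and 10.39. All FR values were lower, with the smallest called change of the set: it fell by 0.56 (SE 0.084, 1.48-fold lower, adjusted p = 0.000565). Sesn1 encodes sestrin 1, a leucine-responsive inhibitor of mTORC1 signalling. Its values were 7.59, 7.51 and 7.64 in DMSO and 7.58, 7.47 and 7.34 in FR. The groups overlapped, and the change of -0.12 (95% interval -0.32 to 0.08, adjusted p = 0.349) did not pass.

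Genes of survival and death signalling held the largest fall. Eda2r encodes the receptor for ectodysplasin A2, a TNF-family ligand. Its values were 7.11, 7.20 and 7.12 in DMSO and 6.22, 6.16 and 6.17 in FR, nearly equal within each group. It fell by 0.96 (SE 0.079, 1.94-fold lower, adjusted p = 7.71e-06), and 327 of all genes (1.64%) fell further. Phlda3, whose pleckstrin homology domain protein competes with the kinase Akt for membrane lipids, read 8.84, 9.07 and 8.95 in DMSO and 8.30, 8.27 and 8.11 in FR. Again no array of one group reached the other, and the level fell by 0.73 (SE 0.094, 1.66-fold lower, adjusted p = 0.000189). Aen encodes an exonuclease that contributes to p53-dependent apoptosis. It read 6.65, 6.65 and 6.91 in DMSO and 6.61, 6.61 and 6.63 in FR, so that the FR arrays were lower by a margin far smaller than the distance of DMSO array 3 from the others. The change of -0.12 (95% interval -0.33 to 0.09, adjusted p = 0.366) did not pass. The intervals of Aen and Sesn1 leave room for a modest fall, and end short of the point estimates of the 6 genes that fell.

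Among the FR arrays, array 1 was the lowest for none of the 8 genes, and arrays 2 and 3 were the lowest for 4 each. Relative to the DMSO mean, the change on single FR arrays ran from -0.92 to -0.98 for Eda2r, from -0.74 to -1.13 for Trp53inp1, from -0.79 to -0.97 for Zmat3, from -0.65 to -0.84 for Phlda3, from -0.61 to -0.81 for Mdm2 and from -0.46 to -0.63 for Ccng1. In this order, from the largest fall to the smallest, each gene's range overlapped that of the next.

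The genes on either side of each target on the chromosome give a comparison that shares position. By gene order in GRCm38.p6, 14 of 16 neighbouring protein-coding genes were measured. Of these 2 fell, 1 rose and 11 were not called, with a median change of 0.08. As 14.5% of all genes fell and 13.4% rose, the count of falls is near the share over all genes. In the DMSO level range of the targets 29.5% of genes fell, and the neighbours were not matched to the targets in level. Beside Mdm2, the carboxypeptidase gene Cpm changed by 0.11 (adjusted p = 0.454) and the transporter-like gene Slc35e3 by -0.20 (adjusted p = 0.173). Beside Zmat3, the lipid kinase gene Pik3ca changed by -0.16 (adjusted p = 0.159) and the potassium channel subunit gene Kcnmb2 by 0.18 (adjusted p = 0.301). Beside Trp53inp1, the cyclin E2 gene Ccne2 changed by 0.11 (adjusted p = 0.535) and Ndufaf6, a gene for respiratory complex I assembly, by 0.27 (adjusted p = 0.078). None of these 6 passed.

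The called neighbours stood beside Phlda3 and Aen. Around Phlda3, Csrp1, a LIM-domain gene of smooth muscle and the cytoskeleton, fell by 0.66 (adjusted p = 0.000499), and Tnni1, the slow skeletal troponin I gene, rose by 0.60 (adjusted p = 0.00344). Beside Aen, Isg20, an interferon-induced exonuclease gene of the same family, fell by 0.95 (adjusted p = 4.45e-05).

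**Figure D2:**
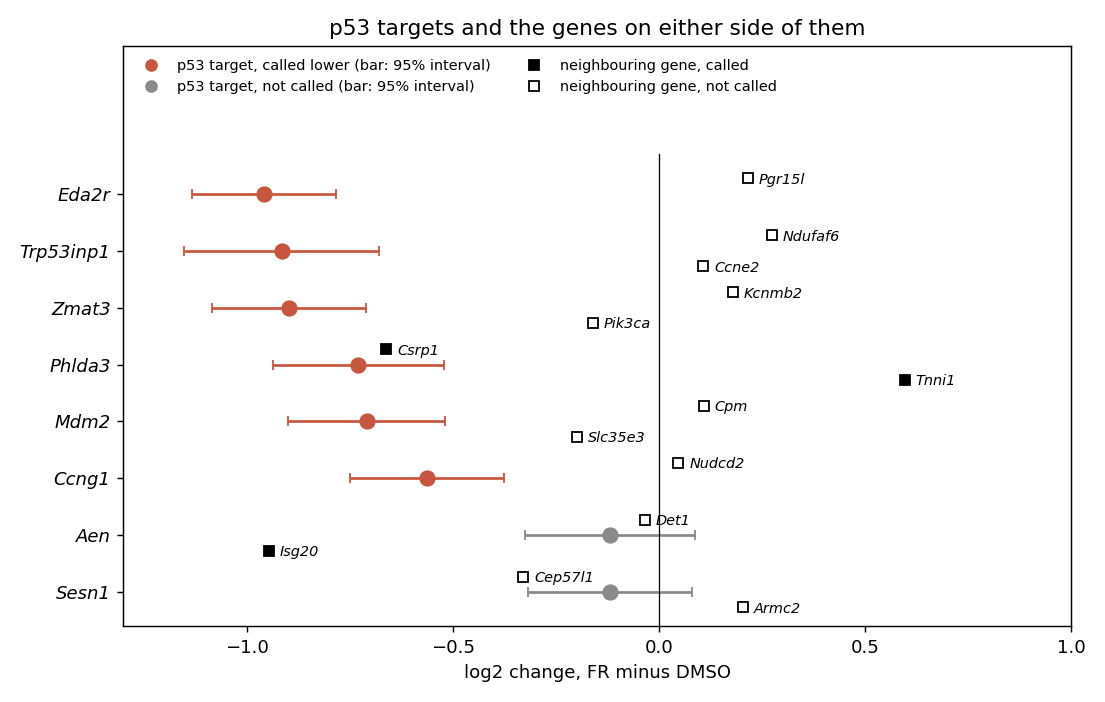
log2 change (FR minus DMSO) of each measured p53 target (circles, bars for 95% intervals) and of the measured genes on either side of it in GRCm38.p6 gene order (squares, filled where called). The 6 targets that fell lie between -0.96 and -0.56, while 11 of the 14 neighbours were not called. Neighbours were not matched to the targets in level.

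Paralogs of the measured targets, which share protein family but are not all p53 targets, went both ways. Of 12 measured, 5 fell and 1 rose, with a median of -0.10. Over all genes 14.5% fell and 13.4% rose, and 29.5% fell among genes in the level range of the measured targets. The falls include that of Isg20, given above. Trp53inp2, Sesn2 and Ccng2 are also counted among the further p53 targets below. Mdm4, a partner of Mdm2 that restrains p53, changed by 0.09 (8.71 ± 0.10 to 8.79 ± 0.032, mean ± SD, n = 3, adjusted p = 0.472). Trp53inp2, an autophagy cofactor gene, fell by 0.62 (adjusted p = 0.000385). Sesn2, a sestrin gene induced by amino acid and oxidative stress as well as p53, fell by 0.58 (adjusted p = 0.000406), and Sesn3 changed by 0.19 (adjusted p = 0.135). Phlda1 rose by 1.13 (2.19-fold, adjusted p = 4.89e-06), while Phlda2 changed by 0.10 (adjusted p = 0.423) with both means under the background level. The change of Ccng2 was -0.34 (adjusted p = 0.0656). Zmat5 fell by 0.29 (adjusted p = 0.043) and Zmat1 by 0.59 within the background range (adjusted p = 0.0116), Zmat4 changed by 0.13 within that range (adjusted p = 0.389), and Isg20l2 changed by 0.14 (adjusted p = 0.33). Differences between a target and its paralog were not tested.

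**Figure D3:**
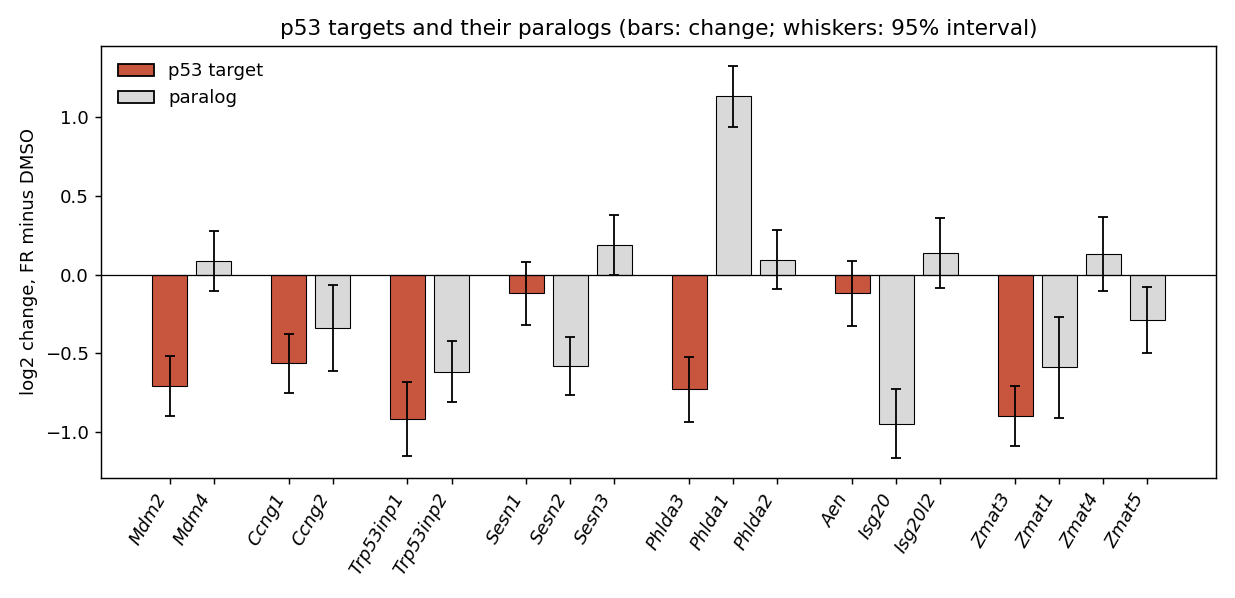
log2 change (FR minus DMSO) of p53 targets (red bars) beside their paralogs (grey bars), with whiskers for 95% intervals. Phlda1 at 1.13 stands opposite to Phlda3 at -0.73, and the interval of Mdm4 includes 0 while that of Mdm2 does not; Zmat1, Zmat4 and Phlda2 lie in the background range.

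Genes linked to Eda2r and Cdkn1a were also measured. Eda, the ectodysplasin gene whose products include the ligand of Eda2r, rose by 0.40 from a level under the background (5.54 to 5.93, adjusted p = 0.0364), and Edar, the receptor for the other ectodysplasin isoform, lay under it in both groups (4.57 and 4.77, adjusted p = 0.131). Among cyclin-dependent kinase inhibitors, 3 of 6 measured rose and 1 fell, where 13.4% of all genes rose and 14.5% fell. Cdkn1b (p27) rose by 0.56 (10.32 ± 0.072 to 10.88 ± 0.17, adjusted p = 0.00187) and Cdkn1c (p57) by 0.80 (adjusted p = 0.000185), both relatives of Cdkn1a. Cdkn2b, a known target of TGF-β signalling, rose by 0.31 (adjusted p = 0.0341), and Cdkn2d fell by 0.38 (adjusted p = 0.0145).

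Further p53 targets were lower more often than higher. Of 51 measured in 3 lists, each gene counted once, 23 fell and 3 rose, with a median change of -0.26 against 0.05 over all genes. As above, 14.5% of all genes fell and 13.4% rose. Of the genes in the level range of the 8 main targets 29.5% fell, with a median change of -0.10. These shares are the background for each list that follows, though each list also holds genes that start outside that range. Several have other inducers besides p53, and the lists were chosen with earlier results known, so the count describes the list and not p53 activity.

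Among genes of arrest, repair and feedback, 8 of 20 fell and none rose (1 rose and 10 fell at an unadjusted p under 0.05), with a median of -0.16. Polk, a DNA polymerase gene for bypass of damaged bases, read 8.37, 8.34 and 8.31 in DMSO and 7.13, 7.09 and 7.27 in FR. It fell by 1.17 (2.26-fold lower, adjusted p = 2.66e-06), more than any of the 8 main targets. The stress kinase gene Plk3 was at least 2.01-fold lower (adjusted p = 0.000338), with an FR mean under the background level. Gadd45b and Gadd45g, stress sensor genes, of which Gadd45b is also a TGF-β target, fell by 0.88 and 0.70 (adjusted p = 4.03e-05 and 0.000384). Gadd45a, of the same family, went the other way by 0.26 and was not called (adjusted p = 0.0771), though every FR value lay above every DMSO value. Ppm1d, the phosphatase gene that shuts p53 signalling off again, changed by 0.20 (8.13 ± 0.072 to 8.33 ± 0.17, adjusted p = 0.161).

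Among cell death targets, 5 of 14 fell and 1 rose (7 and 2 at an unadjusted p under 0.05), with a median of -0.18. That count of falls is near the 29.5% of genes in the level range of the main targets. Some of the 14, Bbc3 and Perp among them, start below that range, so the sets are not matched in level. Bid, a gene that links death receptors to mitochondria, fell by 0.56 (adjusted p = 0.00123), the death receptor gene Tnfrsf10b by 0.56 (adjusted p = 0.00126) and Apaf1, the scaffold of the apoptosome, by 0.44 (adjusted p = 0.00836). The single rise was that of Perp, a desmosomal gene driven by both p53 and its relative p63. Perp read 6.00, 5.95 and 6.00 in DMSO and 7.90, 7.68 and 7.84 in FR, and rose by 1.82 (3.54-fold, adjusted p = 1.63e-07). Bbc3, which encodes the killer protein PUMA, changed by 0.02 (adjusted p = 0.9). Pmaip1, which like Bbc3 is also on the BCL2 family list below, fell by 0.30 (adjusted p = 0.0282). Fas changed by 0.19 (adjusted p = 0.125).

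Among metabolic and signalling targets, 10 of 17 fell and 2 rose, with a median of -0.42. Ephx1, the microsomal epoxide hydrolase gene, read 9.58, 9.54 and 9.59 in DMSO and 7.88, 7.72 and 7.42 in FR. It fell by 1.90 (3.72-fold lower, adjusted p = 6.85e-07). Ak1, the adenylate kinase gene, fell by 1.28 (adjusted p = 2.04e-06) and Dglucy, a D-glutamate metabolism gene, by 0.94 (adjusted p = 2.24e-05). The rises were those of Ephx2, the soluble epoxide hydrolase gene, which was at least 3.87-fold higher from a level of 5.61 (adjusted p = 9.48e-07), and Cyfip2, within the background range (4.89 to 5.46, adjusted p = 0.00966).

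**Figure D4:**
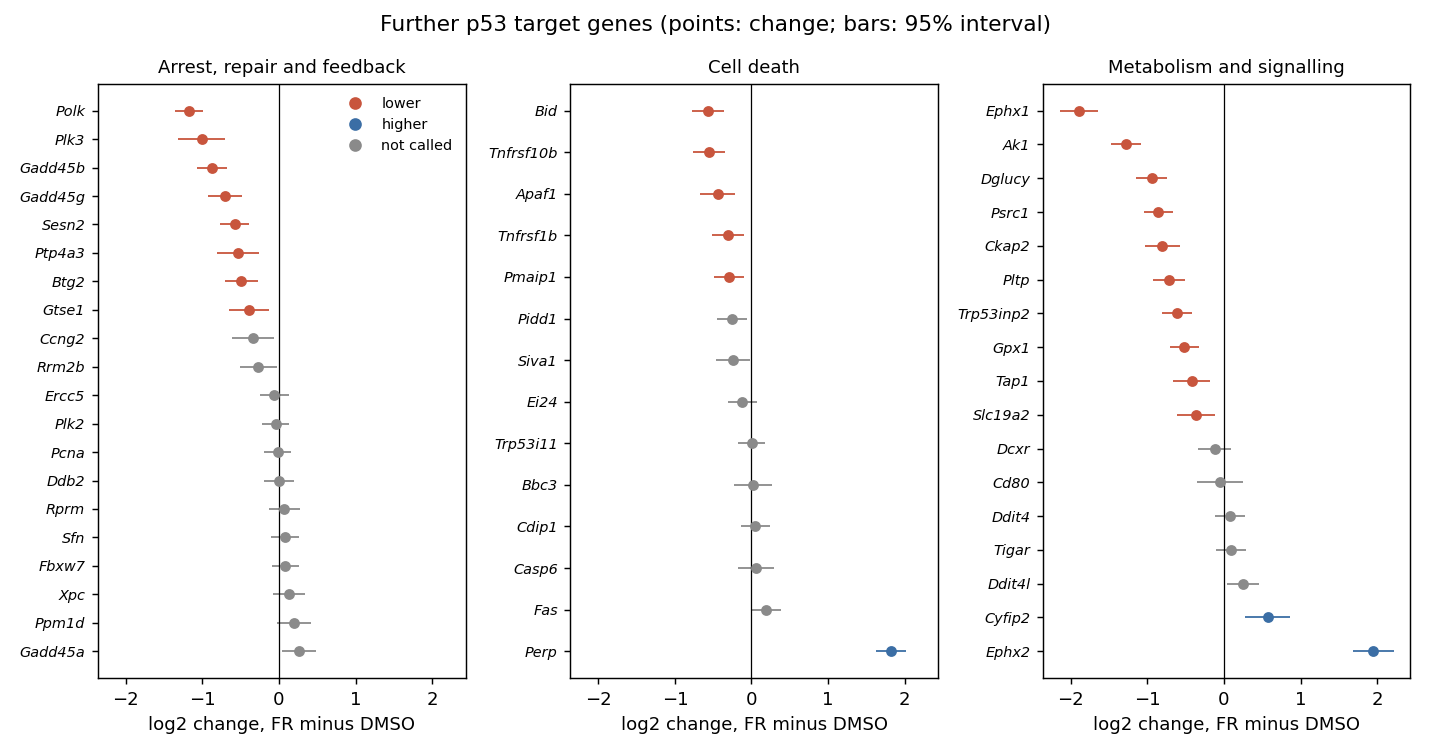
log2 change (FR minus DMSO) of 51 further p53 target genes in 3 classes, with bars for 95% intervals and colours for the call. Falls outnumber rises in each class, and the rises of Perp and Ephx2 stand far from the rest.

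Regulators of p53 went both ways: 4 of 19 measured rose and 5 fell, with a median of -0.06. Over all genes 13.4% rose and 14.5% fell, and 29.5% fell in the level range of the main targets. Chek2, a kinase gene that activates p53 after DNA breaks, fell by 0.70 (adjusted p = 0.000455), Atm, the kinase gene upstream of it, by 0.34 (adjusted p = 0.0184), and Ppp1r13l, a gene for an inhibitor of p53, by 0.38 (adjusted p = 0.0248). Trp53bp1 and Trp53bp2 also fell, by 0.32 and 0.30 (adjusted p = 0.0256 and 0.0421). Hipk2, a kinase gene that activates p53, rose by 0.37 (adjusted p = 0.00967). Atr and Cop1, also on this list, rose by 0.35 and 0.32 (adjusted p = 0.0155 and 0.0187). Cdkn2a, whose ARF product blocks Mdm2, changed by -0.02 (6.10 ± 0.11 to 6.08 ± 0.17, adjusted p = 0.893). Trp63, the p63 gene of basal keratinocytes, read 5.87, 6.11 and 5.91 in DMSO and 7.06, 7.33 and 7.11 in FR. It rose 2.30-fold (adjusted p = 9.71e-06), with no overlap between groups. Trp63 and Perp are also on the list of keratinocyte markers given at the end.

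Genes downstream of the pathway are given for description. p53 represses many cell cycle genes through p21 and the DREAM complex. Neither Cdkn1a, the p21 gene, nor the p53 gene was analysed here, and whether that repression changed was not tested. Of 23 such genes measured, 9 fell and none rose, also with none higher at an unadjusted p under 0.05 (10 lower), with a median of -0.16. This stands beside 14.5% lower over all genes and 29.5% in the level range of the main targets, so the count is not far from that background. Kif23 and Prc1, genes of the dividing cell's central spindle, fell by 0.91 (adjusted p = 0.000177) and 0.74 (adjusted p = 8.96e-05), and Mki67, which encodes the proliferation marker Ki-67, fell by 0.43 (adjusted p = 0.00484). The mitotic checkpoint gene Bub1b fell by 0.59 (adjusted p = 0.00337). In the BCL2 family, to which Bax belongs, 5 of 14 fell and none rose (5 and 0 at an unadjusted p under 0.05), with a median of -0.03. This count too is near the 29.5% of genes in the level range of the main targets that fell, though some of the family, such as Bik and Bcl2l2, start below it. The 5 included the survival gene Bcl2l1, which fell by 0.62 (adjusted p = 0.000861), and the pore-forming gene Bak1, the closest functional partner of Bax, which fell by 0.58 (adjusted p = 0.00148).

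Markers of other cell types moved with the treatment as well, and their counts stand beside 13.4% of all genes higher and 14.5% lower. Of 20 keratinocyte markers, a list that holds Perp and Trp63, 15 rose and none fell (16 and 0 at an unadjusted p under 0.05), and the mean level of the list went from 5.94 to 6.00 on the DMSO arrays to 6.91 to 7.03 on the FR arrays. Among them Krt5 rose by 2.18 and Krt16 by 2.03 (adjusted p = 1.17e-07 and 3.87e-07). In DMSO 13 of the 20 lay above the background level and in FR 16, with Krt1, Krt18 and Epcam among those under it in both. Adipocyte markers rose in 6 of 8 cases (array means of 6.51 to 6.56 in DMSO and 7.98 to 8.12 in FR), with Adipoq at least 8.30-fold higher and Fabp4 up by 2.44. Skeletal muscle markers rose in 7 of 8 (6.19 to 6.42 and 7.31 to 7.46), led by Actc1 and Tnnc2, which rose by 2.16 and 1.81.

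Fibroblast markers were all above the background level in both groups, with 4 of 11 higher and 6 lower (10.88 to 10.92 and 10.74 to 10.78). Lum rose by 2.17, Col1a2 fell by 1.57 and the change of Pdgfra was -0.03 (adjusted p = 0.802). Of 9 leukocyte markers, 1 rose, Cd14 by 0.91 (adjusted p = 0.000441), and 6 were under the background level in each group, Ptprc and Csf1r among them (array means of 4.99 to 5.17 in DMSO and 5.16 to 5.32 in FR). Of 7 endothelial markers 2 rose and 1 fell, with Flt1 at least 4.34-fold lower and Emcn up by 0.68 within the background range. The part of these cell types in the fall of the p53 targets was not tested.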

How the data were processed

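Total RNA of cultured mouse dermal cells was measured on 6 arrays, 3 labelled DMSO and 3 labelled FR, and the arrays were grouped by title. The authors deposited log2 values for 35556 probe sets, which the submitters' processing notes attribute to RMA run with oligo. Versions and genome build are not given in the sources used here. In its usual form RMA corrects background, normalizes by quantiles and summarises probes, and this compresses the changes of dim genes.

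Gene names come from the annotation of the array platform: 21789 probe sets had 1 symbol and were used, 1621 had several and were left out, and for 999 genes with several probe sets the one with the highest mean over all arrays was taken. Gene identifiers matched RefSeq (GRCm38.p6) for 21698 probe sets and changed 0 symbols. The test was limma's moderated test (limma 3.58.1, R 4.3.3, lmFit and eBayes, FR minus DMSO, group as the only term, two-sided, Benjamini-Hochberg over 19938 genes, threshold 0.05), without a filter on dim genes. The fit was checked on simulated data with known changes. A fold is written as at least the value found where 1 group mean lies under the background level, and a gene with both means under it is called within the background range.

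The members and the gene lists were chosen with earlier results of these data known. The text names the members, Mdm4, Cdkn2a, Ppm1d, Trp63, the paralogs and partners, up to 4 called genes of each pathway list and 2 of each marker list by size of change. Neighbouring genes were taken by position, and the 6 described beside Mdm2, Zmat3 and Trp53inp1 were chosen after their values were seen. So were Atm, Atr, Cop1, Trp53bp1, Trp53bp2, Cyfip2, Gadd45a, Bbc3, Fas, Krt1, Krt18, Epcam, Pdgfra, Ptprc and Csf1r. Lists are described by counts and medians, with no test of their own. Scan batches were not analysed here, and 0 of the pairs of arrays held identical values. Alternatives were 3 normalizations, a filter on dim genes, other uses of probe sets, other variance models, the replicate number as a block, and each array left out.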

Additional observations from a re-analysis of the deposited data

How the results depend on the processing

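Under 15 alternatives, which were quantile normalization, median centring, cyclic loess, leaving out dim genes, the mean of probe sets, every probe set, array weights, robust moderation with a trend in the variance, the replicate block and leaving out each of the 6 arrays, the same 6 p53 targets fell and none rose. All 120 repeated values of the 8 genes kept their direction and their side of the threshold. Changes ranged from -1.01 to -0.93 for Eda2r, -0.95 to -0.81 for Zmat3, -0.79 to -0.63 for Phlda3, -0.76 to -0.61 for Mdm2 and -0.62 to -0.49 for Ccng1, and that of Trp53inp1 stayed at -0.81 or further from 0, with adjusted p up to 0.00352. Sesn1 ranged from -0.18 to -0.03 (adjusted p of 0.177 or more) and Aen from -0.17 to -0.03 (0.231 or more).

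With the replicate number as a block, 4977 genes were called in place of 5559. Samples that share a number did not deviate together (r of -0.07, 0.05 and -0.03), so the numbers were not taken as pairs. Leaving out 1 array gave 4033 to 5914 calls. Median centring gave 3402 lower and 2005 higher calls, 62.9% lower against 52.0% as reported. No detection calls accompany RMA values, so the background level rests on olfactory receptor genes.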
